A study of Mus musculus with 8 samples.

Results

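The 45 genes described here encode the glucose transporters, the enzymes of glycolysis and the citric acid cycle, lactate dehydrogenase, the monocarboxylate transporters and their partner basigin, the creatine kinases and the rod-derived cone viability factors. They were taken by symbol from the 22095 genes with a count in the neural retinas of 3 weeks-old (postnatal day 21) Mfp2-/- and control mice, and 43 of them passed the filter on low counts. MFP2, encoded by Hsd17b4, is a central enzyme of peroxisomal β-oxidation, and the comparison asks how its loss changes the transcriptome of the young retina. The tested animals were 4 Mfp2-/- mice, in which the gene is inactive in the whole body from conception, so that the liver and the brain of these mice lack it too. The 4 controls were 3 Mfp2+/+ mice (replicates 1, 3 and 4) and 1 Mfp2+/- mouse (replicate 2), and all animals were C57BL/6J mice whose eyes were taken under the same anaesthesia. A library was made from the 2 neural retinas of a mouse and read transcripts at their 3′ ends. The sex of the animals is not given in the sources used here.

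In Mfp2-/- retinas 11 of the 43 genes tested were lower (25.6%, against 13.2% of all genes) and 3 were higher (6.98%, against 13.8%). The losses lay in the rod-derived cone viability factors Nxnl1 and Nxnl2, in hexokinases Hk2 and Hk1, in Pfkfb2, Ldha, Pkm, Eno1 and Aldoa, in the lactate transporter Slc16a1 and in the mitochondrial creatine kinase Ckmt1. The gains were smaller than 2-fold and concerned the glucose transporter Slc2a3, the phosphofructokinase Pfkm and the isocitrate dehydrogenase Idh2. Of the citric acid cycle, 10 of the 11 genes tested were not called in either direction, as was so for 9139 of the 12516 genes tested in all.

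Photoreceptors are among the most glucose-hungry cells of the body and turn most of their glucose into lactate even when oxygen is present, a habit called aerobic glycolysis. Hexokinase 2, the M2 form of pyruvate kinase and lactate dehydrogenase A are the enzymes usually named for it, and lactate leaves the cell through monocarboxylate transporters that need the chaperone basigin to reach the membrane. Nxnl1 of rods encodes a secreted factor that binds a basigin isoform on cones and promotes the entry of glucose through the transporter encoded by Slc2a1. In the citric acid cycle, by contrast, acetyl groups are oxidized in the mitochondria, which in photoreceptors crowd the inner segments.

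The libraries held between 1895485 and 2826553 counts in genes for Mfp2-/- retinas and between 2340974 and 3226187 for control retinas. Hsd17b4 had 1, 0, 1 and 0 counts in Mfp2-/- replicates 1 to 4, against 47, 20, 78 and 37 counts in control replicates 1 to 4. Mfp2-/- replicates 2 and 3 stood apart, since 10.8 and 15.7% of the reads tallied lay outside genes, against 27.5 and 28.0% in the other Mfp2-/- libraries and 22.6 to 29.9% in controls. Lens markers summed to 5462 and 3085 CPM in these 2 libraries, to 1736 and 292 CPM in Mfp2-/- replicates 1 and 4, and to 283 to 1204 CPM in controls (CPM, counts scaled to library size with TMM factors). Rod markers summed to between 2100 and 2991 CPM in Mfp2-/- retinas and between 53938 and 65353 CPM in control retinas, and all 20 were lower. Cone markers summed to between 1256 and 1421 CPM in Mfp2-/- retinas and between 2559 and 2870 CPM in control retinas, with 10 of 17 lower and 2 higher. Of all genes tested, 13.2% were lower and 13.8% were higher. No rod or cone marker was at 0 throughout. From these counts of whole retinas alone, fewer cells of a type and less RNA per cell cannot be told apart. In sections at this age the paper found photoreceptor nuclei normal in number, although more of them were apoptotic, and shorter outer and inner segments. The part of rod, cone and lens cells in the results below was not tested.

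The 45 genes took 0.86 to 1.09% of all counts in genes in Mfp2-/- libraries and 1.04 to 1.15% in control libraries. A gene was called when the adjusted p of edgeR's quasi-likelihood test, corrected over all 12516 genes tested, was below 0.05, and its log2 fold change is given ± standard error. The 11 members called lower were 25.6% of those tested, against 13.2% of all genes, and the 3 called higher were 6.98%, against 13.8% of all genes. In 18 of the 43 genes (41.9%) the Mfp2-/- and control libraries did not overlap, as was so for 30.9% of all genes, and these 18 included all 14 called genes. The median log2 fold change was -0.059 over the members and -0.0039 over all genes tested. Of the 14 called members, 7 were more than 2-fold lower and 0 were more than 2-fold higher.

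The count of genes called higher depended on scaling, on the tool and on single libraries. With upper-quartile factors, or with library totals alone, the median of all genes moved to 0.12, 64.2 or 65.2% of all calls were upward (51.2% with TMM), and Aldoc, Tpi1 and Ckb joined the 3 higher members to make 6. DESeq2 and limma-voom each called 4 higher, with Aldoc added. Without Mfp2-/- replicate 4 there were 5, with Aldoc and Ckb added, and without control replicate 2 or without control replicate 4 there were 2, as Pfkm was lost. Without both Mfp2-/- replicates 2 and 3 there were 2 higher and 15 lower members, as Pfkm was lost and Pfkl, Pgam1, Slc16a3 and Pdhb were gained. Upward calls were 51.0% of all calls there, 51.0% with DESeq2, 48.5% with limma-voom and 51.7% without Mfp2-/- replicate 4. The shares of all genes called in each alternative are not given here, so these member counts cannot be read against them.

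**Figure D1:**
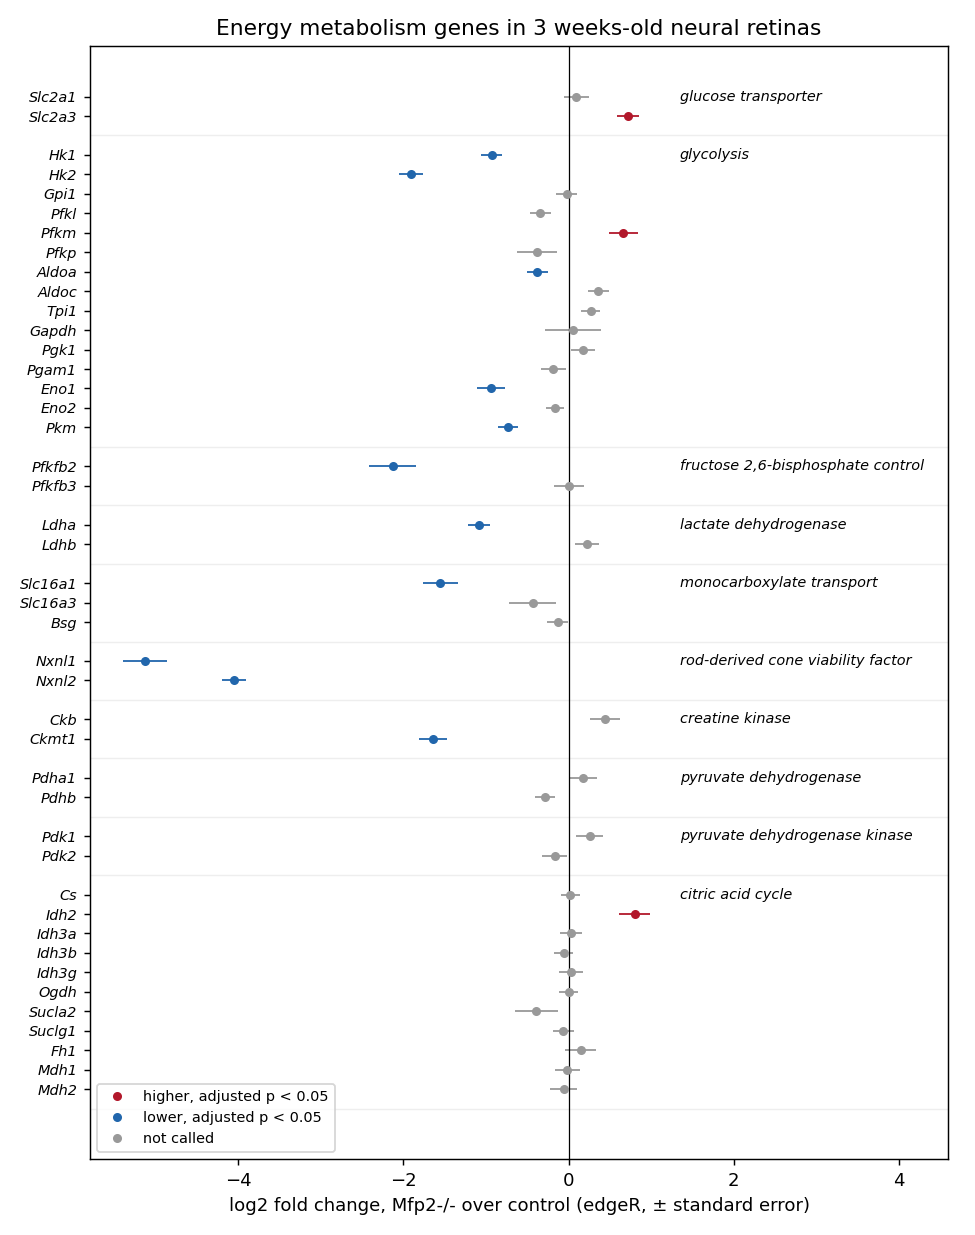
Log2 fold change of each of the 43 members tested, Mfp2-/- over control (x axis), with genes grouped by role down the page; points are edgeR estimates and bars are their standard errors. The 11 genes called lower (blue) reach from -0.38 for Aldoa to -5.13 for Nxnl1, and the 3 called higher (red) lie between 0.66 and 0.80. Of the citric acid cycle, Idh2 lies at 0.80 and the other genes tested between -0.39 for Sucla2 and 0.15 for Fh1.

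The stretches of DNA before the transcription start of 4 members are shown because these genes lost transcript in different branches of the group: Nxnl1 and Nxnl2 for cone support, Hk2 for the first step of glycolysis and Slc16a1 for lactate transport. They are the 250 bases upstream of the start, read in the direction of the gene, from RefSeq on GRCm38.p6. The Nxnl1 stretch is chr8:71566650-71566899 on the minus strand, that of Nxnl2 chr13:51170775-51171024 on the plus strand, that of Hk2 chr6:82774455-82774704 on the minus strand and that of Slc16a1 chr3:104638414-104638663 on the plus strand. Capitals mark every match, on either strand, to 4 searched motifs: TAATCC, the core that the photoreceptor factors CRX and OTX2 bind; TGCTGA, the short motif of the rod factor NRL; ACGTG or GCGTG, the core of hypoxia-inducible factors; and TCAAGGTCA, the site of oestrogen-related receptors.
Nxnl1: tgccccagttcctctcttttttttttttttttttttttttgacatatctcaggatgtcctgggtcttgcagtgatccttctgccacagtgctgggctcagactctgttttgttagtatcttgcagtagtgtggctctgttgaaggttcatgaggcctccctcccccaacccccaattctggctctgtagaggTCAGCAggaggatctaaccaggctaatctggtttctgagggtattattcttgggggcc
Nxnl2: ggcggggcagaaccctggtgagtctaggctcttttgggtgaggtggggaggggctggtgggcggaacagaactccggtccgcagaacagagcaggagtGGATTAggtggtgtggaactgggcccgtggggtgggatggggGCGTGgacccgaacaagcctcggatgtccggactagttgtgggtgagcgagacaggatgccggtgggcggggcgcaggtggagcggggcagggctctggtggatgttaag
Hk2: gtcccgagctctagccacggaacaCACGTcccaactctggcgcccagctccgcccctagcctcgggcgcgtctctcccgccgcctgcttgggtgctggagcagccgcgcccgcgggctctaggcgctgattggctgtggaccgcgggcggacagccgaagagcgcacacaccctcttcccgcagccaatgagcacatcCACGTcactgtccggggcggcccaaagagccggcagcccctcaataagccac
Slc16a1: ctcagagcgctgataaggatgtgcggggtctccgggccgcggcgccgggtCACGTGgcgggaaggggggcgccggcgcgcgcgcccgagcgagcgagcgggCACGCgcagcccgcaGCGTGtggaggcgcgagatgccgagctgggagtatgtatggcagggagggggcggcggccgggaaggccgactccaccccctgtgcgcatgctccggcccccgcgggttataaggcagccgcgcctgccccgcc

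Nxnl1 held 1 match to the NRL motif, 58 bases before its RefSeq start, which lies upstream of its GENCODE start (71566601, minus strand). Nxnl2 held 1 match to the CRX core, 152 bases before its start, and 1 hypoxia core. Hk2 held 2 hypoxia cores and Slc16a1 4, where CACGTG was counted on both strands. RefSeq stretches were found for 41 of the 45 members, all but Slc2a3, Slc16a7, Bsg and Idh3a. A gene can have several starts, and it was counted when any of its stretches held the motif, over 63 stretches for the 41 members and 32851 for all 27025 genes, so that members had more stretches per gene and the shares are not fully comparable. The CRX core was in 7 of the 41 (17.1%) and in 7.21% of all genes, the NRL motif in 9 (22.0%) and in 18.0% of all genes, and the hypoxia cores in 31 (75.6%) and in 41.5% of all genes. Of the 11 members called lower, 2 held the CRX core (18.2%), 4 the NRL motif (36.4%) and 9 a hypoxia core (81.8%), against 5 (16.7%), 5 (16.7%) and 22 (73.3%) of the 30 others. The members called lower also had more stretches per gene than the others, so these shares are not fully comparable either. The oestrogen-related receptor site was in 0 of the 41 members and in 0.422% of all genes. A match describes these letters and shows no binding.

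Of the glucose transporter genes, only the neuronal one was called. Slc2a1, the GLUT1 gene that serves photoreceptors and glia, ranged from 165 to 232 CPM in Mfp2-/- retinas and from 174 to 196 CPM in control retinas, with an uncalled log2 fold change of 0.09 ± 0.15 (adjusted p = 0.674). Slc2a3, the GLUT3 gene typical of neurons, had 73.3, 70.6, 64.9 and 63.6 CPM in Mfp2-/- replicates 1 to 4, against 35.7, 44.8, 46.4 and 38.7 CPM in control replicates 1 to 4. Every Mfp2-/- library lay above every control, and the gene was 1.64-fold higher (log2 fold change 0.72 ± 0.13, adjusted p = 0.0027).

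Both hexokinases, which trap glucose in the cell as glucose 6-phosphate, fell in Mfp2-/- retinas. Hk2 (GRCm38 chromosome 6, 82725025 to 82774454, minus strand) had 101, 112, 97.5 and 79.4 CPM in Mfp2-/- replicates 1 to 4, against 390, 317, 393 and 361 CPM in control replicates 1 to 4. The groups were far apart, and Hk2 was 3.75-fold lower (log2 fold change -1.91 ± 0.15, adjusted p = 5.12e-06). Hk1, the form found in most neurons, had 239, 295, 237 and 256 CPM in Mfp2-/- replicates 1 to 4, against 557, 478, 474 and 453 CPM in control replicates 1 to 4. It was 1.91-fold lower, again without overlap (log2 fold change -0.93 ± 0.13, adjusted p = 0.00048). Both calls held in each alternative that was run.

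Of the 3 phosphofructokinase genes, whose products commit sugar to glycolysis, only Pfkm was called. Pfkm, the muscle-type gene, had between 96.3 and 159 CPM in Mfp2-/- retinas and between 68.8 and 87.7 CPM in control retinas, and was 1.59-fold higher (log2 fold change 0.66 ± 0.18, adjusted p = 0.0175). Its call was lost without control replicate 2 (0.62, adjusted p = 0.0602), without control replicate 4 (0.64, adjusted p = 0.0564) and without both Mfp2-/- replicates 2 and 3 (0.38, adjusted p = 0.0543). Pfkm shares exon bases with Senp1 on the other strand, and Pfkp likewise with Pitrm1, and the sources used here do not state whether strand was used in counting. Pfkl, the liver-type gene, lay lower in all 4 Mfp2-/- libraries (92.7 to 120 CPM in Mfp2-/- and 128 to 148 CPM in control) but was not called (-0.34, adjusted p = 0.067), and it was called without Mfp2-/- replicate 2 (-0.39, adjusted p = 0.0359). Pfkp, the platelet-type gene, had 274, 112, 161 and 255 CPM in Mfp2-/- replicates 1 to 4, against 267, 249, 249 and 279 CPM in control replicates 1 to 4. Its low values were those of Mfp2-/- replicates 2 and 3, and the log2 fold change of -0.38 (adjusted p = 0.274) was 0.014 without these 2 libraries.

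Fructose 2,6-bisphosphate, the strongest activator of phosphofructokinase, is made and broken down by the Pfkfb enzymes. Pfkfb2 (chromosome 1, 130689182 to 130729253, minus strand) had 9.91, 3.56, 12.1 and 7.72 CPM in Mfp2-/- replicates 1 to 4, against 34.9, 29.0, 41.3 and 44.9 CPM in control replicates 1 to 4. It was 4.38-fold lower (log2 fold change -2.13 ± 0.28, adjusted p = 0.00033), and the Mfp2-/- values rest on 7 to 36 counts a library. Pfkfb2 overlaps Yod1 on the other strand, which had 581 counts over the 8 libraries against 509 for Pfkfb2. Pfkfb3, the isoform known from proliferating and hypoxic cells, had 30.8, 36.6, 34.6 and 24.6 CPM in Mfp2-/- replicates 1 to 4, against 38.6, 30.3, 32.3 and 24.7 CPM in control replicates 1 to 4. These values overlapped and the log2 fold change was 0.0047 ± 0.18.

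Among the aldolases, which split fructose 1,6-bisphosphate, Aldoa had 1186, 1496, 1271 and 1129 CPM in Mfp2-/- replicates 1 to 4, against 1705, 1579, 1709 and 1615 CPM in control replicates 1 to 4. Its values were apart, but the 1.30-fold decrease was only just called (log2 fold change -0.38 ± 0.13, adjusted p = 0.0486). The call was lost with RLE, upper-quartile or no factors, without the filter, with 10 counts in every library and with the replicate block. It was also lost without any 1 library other than Mfp2-/- replicate 2. Over all of these settings the log2 fold change ran from -0.41 (without control replicate 2) to -0.25 (upper-quartile factors). The adjusted p ran from 0.0571 (10 counts in every library) to 0.22 (upper-quartile factors). Fam57b on the other strand of Aldoa had 7588 counts to the 31257 of Aldoa, and was itself 3.12 lower on the log2 scale. Aldoc, the brain-type gene, had 559, 676, 686 and 548 CPM in Mfp2-/- replicates 1 to 4, against 522, 449, 489 and 462 CPM in control replicates 1 to 4. All Mfp2-/- libraries were above all controls, and the log2 fold change of 0.36 ± 0.13 was not called (adjusted p = 0.0612). Aldoc was called with DESeq2 (0.37, adjusted p = 0.0388), with limma-voom (0.36, adjusted p = 0.0422) and without Mfp2-/- replicate 4 (0.43, adjusted p = 0.0417).

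None of the genes of the middle steps was called. Gpi1, Pgk1 and Pgam1, for glucose phosphate isomerase, phosphoglycerate kinase and phosphoglycerate mutase, had log2 fold changes of -0.02, 0.17 and -0.18 with overlapping groups and adjusted p between 0.384 and 0.917. Tpi1, for triosephosphate isomerase, was between 205 and 246 CPM in Mfp2-/- retinas and between 173 and 199 CPM in control retinas, apart but not called (0.27, adjusted p = 0.122). Gapdh, often used as a reference gene, was counted at only 3.82 ± 0.62 CPM in Mfp2-/- and 3.71 ± 1.30 CPM in control retinas (SD, n = 4 each). Of the 50-base words at the 3′ ends of its transcripts 66.7% also occur in 193 other annotated genes, and Iffo1 on the other strand had 657 counts to the 80 of Gapdh, so its level is uncertain.

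Among the last steps of glycolysis Eno1 and Pkm fell and Eno2 was not called. Enolase makes phosphoenolpyruvate, and Eno1, its general form, had 106, 89.9, 90.1 and 76.1 CPM in Mfp2-/- replicates 1 to 4, against 124, 205, 175 and 191 CPM in control replicates 1 to 4. Eno1 was 1.92-fold lower with no overlap (log2 fold change -0.94 ± 0.17, adjusted p = 0.0028), though 80.0% of its 3′ words are shared with Eno1b and 7 more annotated genes. Eno2, the neuronal form, had 380, 393, 427 and 393 CPM in Mfp2-/- replicates 1 to 4, against 429, 473, 458 and 425 CPM in control replicates 1 to 4. Mfp2-/- replicate 3 lay just above the lowest control, and Eno2 was not called (-0.16, adjusted p = 0.312). Pkm, which makes pyruvate and whose M1 and M2 forms a 3′ count cannot separate, had 816, 916, 1005 and 874 CPM in Mfp2-/- replicates 1 to 4, against 1637, 1454, 1488 and 1448 CPM in control replicates 1 to 4. All Mfp2-/- libraries were below all controls, and Pkm was 1.67-fold lower (log2 fold change -0.74 ± 0.12, adjusted p = 0.0013). No other gene of the group lost as many CPM, 604 on average.

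**Figure D2:**
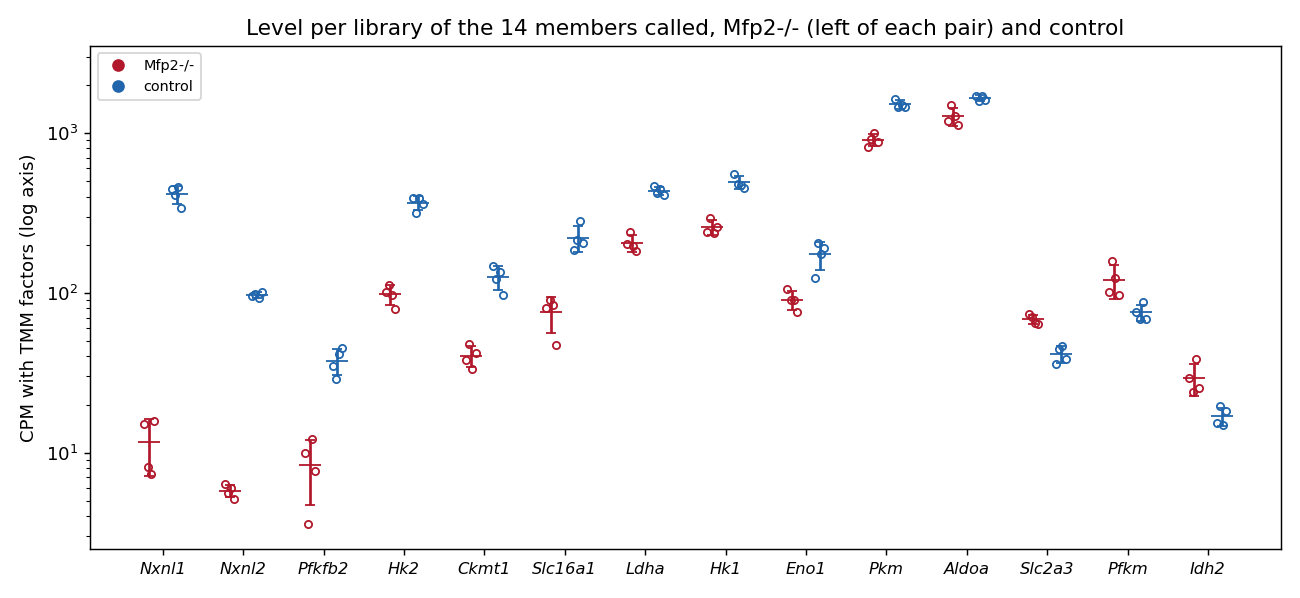
Level of the 14 called members in each library (CPM with TMM factors, log axis), with Mfp2-/- (red) left of control (blue) in every pair; circles are libraries and lines show the mean ± SD of 4 libraries. The groups do not overlap for any of these genes, and Nxnl1 shows the widest gap, from 7.40 to 15.8 CPM in Mfp2-/- retinas and from 339 to 457 CPM in control retinas.

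Lactate dehydrogenase interconverts pyruvate and lactate, with the A subunit favouring lactate. Ldha (chromosome 7, 46841475 to 46855627, plus strand) had 203, 240, 195 and 182 CPM in Mfp2-/- replicates 1 to 4, against 465, 418, 447 and 411 CPM in control replicates 1 to 4. It was 2.12-fold lower without overlap (log2 fold change -1.09 ± 0.13, adjusted p = 0.00016). Ldhb, whose subunit prevails in oxidative tissues, had 57.0, 60.5, 61.5 and 59.2 CPM in Mfp2-/- replicates 1 to 4, against 61.9, 42.5, 55.2 and 43.5 CPM in control replicates 1 to 4. The controls spanned all Mfp2-/- values and Ldhb was not called (0.23 ± 0.15, adjusted p = 0.274).

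Lactate leaves and enters cells through monocarboxylate transporters. Slc16a1, the MCT1 gene whose promoter is printed above (chromosome 3, 104638668 to 104658462, plus strand), had 80.3, 90.4, 84.0 and 47.4 CPM in Mfp2-/- replicates 1 to 4, against 185, 213, 281 and 206 CPM in control replicates 1 to 4. The highest Mfp2-/- value was far below the lowest control, and Slc16a1 was 2.93-fold lower (log2 fold change -1.55 ± 0.21, adjusted p = 0.0004). Slc16a3, the MCT4 gene of lactate-exporting cells, had 40.3, 67.1, 50.4 and 21.7 CPM in Mfp2-/- replicates 1 to 4, against 61.5, 45.2, 74.5 and 58.9 CPM in control replicates 1 to 4. It overlapped and was not called (-0.43, adjusted p = 0.284), but was called lower without Mfp2-/- replicates 2 and 3 (-0.96, adjusted p = 0.0089). Slc16a7, the MCT2 gene, had 30 counts in all Mfp2-/- libraries together and 30 in the controls, too few to be tested. Bsg, which encodes basigin, ranged from 206 to 258 CPM in Mfp2-/- retinas and from 237 to 272 CPM in control retinas, and its log2 fold change of -0.13 ± 0.12 was not called (adjusted p = 0.446). A count at the 3′ end does not separate the cone-surface isoform of basigin from the common one.

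The rod-derived cone viability factors were the members that fell furthest. Nxnl1 (chromosome 8, 71560555 to 71566601, minus strand) had 15.2, 8.13, 7.40 and 15.8 CPM in Mfp2-/- replicates 1 to 4, against 443, 410, 457 and 339 CPM in control replicates 1 to 4. It was 35-fold lower (log2 fold change -5.13 ± 0.26, adjusted p = 3.17e-07), on 16 to 43 counts in each Mfp2-/- library. Its gene also makes a long thioredoxin form that acts inside photoreceptors, which the counts do not separate from the secreted one. Nxnl2, the paralog on chromosome 13 (51171022 to 51175188, plus strand), had 6.37, 5.59, 6.05 and 5.15 CPM in Mfp2-/- replicates 1 to 4, against 96.1, 97.7, 92.6 and 102 CPM in control replicates 1 to 4. The libraries of a genotype were close to each other, and Nxnl2 was 16.6-fold lower (log2 fold change -4.05 ± 0.14, adjusted p = 5.85e-08). Both fall within the log2 fold changes of the 20 rod markers, which ran from -6.60 to -3.11, while the next largest loss among the members was that of Pfkfb2.

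Creatine kinases pass high-energy phosphate between mitochondria and sites of use. Ckmt1, the mitochondrial form (chromosome 2, 121357714 to 121363737, plus strand), had 37.9, 47.8, 33.6 and 42.3 CPM in Mfp2-/- replicates 1 to 4, against 148, 122, 136 and 96.8 CPM in control replicates 1 to 4. All controls lay well above the highest Mfp2-/- library, and Ckmt1 was 3.12-fold lower (log2 fold change -1.64 ± 0.17, adjusted p = 5.11e-05). Ckb, the cytosolic brain-type form that is abundant in glia, had 1234, 1899, 1557 and 1062 CPM in Mfp2-/- replicates 1 to 4, against 991, 1022, 1229 and 989 CPM in control replicates 1 to 4. Only the highest control exceeded the lowest Mfp2-/- library, and Ckb was not called (0.44 ± 0.18, adjusted p = 0.0974). It was called without Mfp2-/- replicate 4 (0.58, adjusted p = 0.0297), and it was 0.11 without replicates 2 and 3. Müller glia markers summed to between 6462 and 8279 CPM in Mfp2-/- retinas, highest in replicates 2 and 3 as for Ckb, and between 4848 and 5460 CPM in control retinas. Of these 15 markers 10 were higher and 0 lower, against 13.8 and 13.2% of all genes. Their part in the level of Ckb was not tested.

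**Figure D3:**
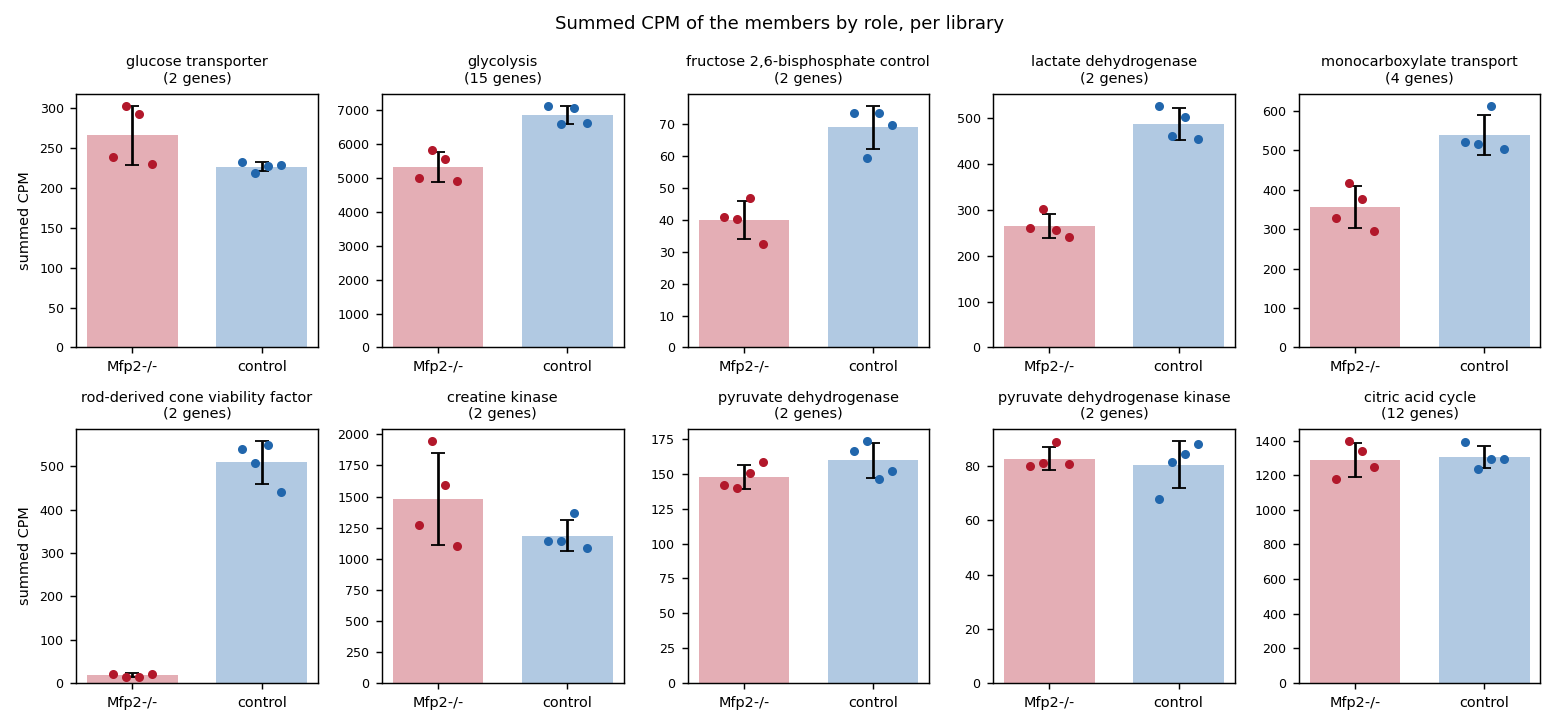
Summed CPM of the members in each role, with Mfp2-/- (red) left of control (blue); bars are means of 4 libraries, error bars are SD and dots are libraries, and each panel has its own axis from 0. The 15 glycolysis genes summed to 5326 ± 442 CPM in Mfp2-/- and 6865 ± 279 CPM in control retinas, whereas the 12 citric acid cycle genes summed to 1290 ± 97.4 CPM in Mfp2-/- and 1305 ± 63.7 CPM in control retinas.

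The pyruvate dehydrogenase complex carries pyruvate into the mitochondrial cycle, and neither Pdha1 nor Pdhb, its genes among the members, was called. Dld, for another subunit and outside the members, was lower (-0.76 on the log2 scale). Pdha1, for the catalytic α subunit, had a log2 fold change of 0.18 (adjusted p = 0.43). Pdhb, for the β subunit, lay between 73.3 and 93.1 CPM in Mfp2-/- and between 98.4 and 113 CPM in control retinas, apart but not called (-0.29, adjusted p = 0.105). Of the kinases that switch the complex off, Pdk1 had 49.5, 43.2, 45.4 and 37.9 CPM in Mfp2-/- replicates 1 to 4, against 27.3, 39.4, 39.4 and 41.5 CPM in control replicates 1 to 4. Pdk2 had 30.4, 38.1, 43.7 and 43.0 CPM in Mfp2-/- replicates 1 to 4, against 40.8, 42.1, 45.2 and 46.7 CPM in control replicates 1 to 4. Both overlapped, with log2 fold changes of 0.26 for Pdk1 (adjusted p = 0.265) and -0.17 for Pdk2 (adjusted p = 0.416).

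In the citric acid cycle Idh2, the mitochondrial enzyme that makes NADPH from isocitrate, was the member that rose. It had 29.4, 23.9, 38.3 and 25.4 CPM in Mfp2-/- replicates 1 to 4, against 15.3, 19.5, 14.8 and 18.1 CPM in control replicates 1 to 4, and was 1.74-fold higher with no overlap (log2 fold change 0.80 ± 0.19, adjusted p = 0.0115). The 3 subunit genes of the NAD-dependent isocitrate dehydrogenase were not called, and Idh3a, Idh3b and Idh3g had log2 fold changes of 0.03, -0.06 and 0.03. Idh3b shares exon bases with Nop56 on the other strand, which had 793 counts to the 2049 of Idh3b. Cs for citrate synthase (0.02), Ogdh for the E1 subunit of 2-oxoglutarate dehydrogenase (0.001) and the malate dehydrogenases Mdh1 (-0.01) and Mdh2 (-0.06) also had log2 fold changes near 0, with adjusted p between 0.815 and 0.996. Fh1, for fumarase, had a log2 fold change of 0.15 (adjusted p = 0.594). Standard errors of these 8 uncalled genes lay between 0.11 and 0.19, so that small shifts were not detectable.

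Succinyl-CoA ligase joins the subunit of Suclg1 to that of Sucla2, which uses ADP, or of Suclg2, which uses GDP. Suclg1 had a log2 fold change of -0.06 (adjusted p = 0.748). Sucla2 had 67.2, 25.4, 54.1 and 73.9 CPM in Mfp2-/- replicates 1 to 4, against 85.9, 69.2, 69.0 and 67.2 CPM in control replicates 1 to 4. The low values were those of Mfp2-/- replicates 2 and 3, as for Pfkp, and the log2 fold change of -0.39 (adjusted p = 0.293) was -0.05 without them. Suclg2 had 9, 11, 16 and 9 counts in Mfp2-/- replicates 1 to 4, against 7, 1, 5 and 4 counts in control replicates 1 to 4. It was too low for the filter, and without the filter its log2 fold change was 1.45 ± 0.51 (adjusted p = 0.0603).

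Ratios of 2 genes for the same step within a library do not depend on how the libraries are scaled, and 7 such pairs were compared by an exact two-sided permutation test, with p-values adjusted over the 7. In 6 pairs all Mfp2-/- libraries lay on 1 side of all controls (exact p = 0.0286, the smallest that 4 against 4 can give, adjusted p = 0.0333). The ratio of Hk2 to Hk1 counts was 0.42, 0.38, 0.41 and 0.31 in Mfp2-/- replicates 1 to 4, against 0.70, 0.66, 0.83 and 0.80 in control replicates 1 to 4, a difference of -0.97 in mean log2 ratio, so that Hk2 fell beyond Hk1. The ratio of Pfkfb2 to Pfkfb3 differed by -2.26, from 0.097 to 0.35 in Mfp2-/- libraries and from 0.906 to 1.82 in control libraries. Ldhb to Ldha differed by 1.34, with ratios between 0.252 and 0.325 in Mfp2-/- libraries and between 0.102 and 0.133 in control libraries. The B form thus took a larger share in Mfp2-/- retinas than in controls, while Ldha kept the higher count in every library. Of the 3′ words of Ldhb 23.9%, and of those of Ldha 15.7%, also occur in other annotated genes.

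In the aldolase and enolase pairs the form known from brain took a larger share in Mfp2-/- retinas. Aldoc to Aldoa differed by 0.74 in mean log2 ratio, with ratios between 0.452 and 0.540 in Mfp2-/- libraries and between 0.284 and 0.306 in control libraries. Eno2 to Eno1 differed by 0.76, with ratios between 3.58 and 5.16 in Mfp2-/- libraries and between 2.23 and 3.44 in control libraries. This last difference had an exact p of 0.0571 without any 1 of the Mfp2-/- replicates or without control replicate 2 or 4, with differences from 0.68 to 0.86. The ratio of Sucla2 to Suclg2 differed by -2.05, but it rests on as few as 1 count of Suclg2, and it was -1.69 without control replicate 2 (exact p = 0.0857) and -1.23 without Mfp2-/- replicates 2 and 3 (exact p = 0.133, where the smallest possible is 0.0667). Pdk1 to Pdk2 overlapped between the groups (difference 0.45, exact p = 0.0857), though without Mfp2-/- replicate 4 the exact p was 0.0286 (0.57).

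**Figure D4:**
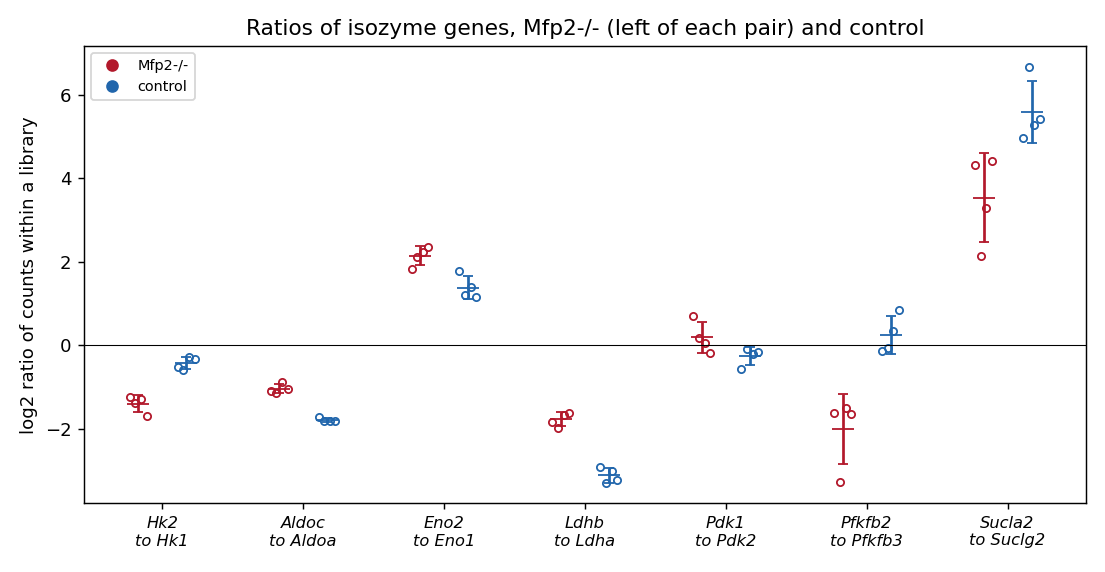
Log2 ratio of the counts of 2 genes for the same step in each library (y axis, pseudocount 0.5), with Mfp2-/- (red) left of control (blue); circles are libraries and lines show the mean ± SD of 4 libraries. Mfp2-/- libraries lie below all controls for Hk2 to Hk1, Pfkfb2 to Pfkfb3 and Sucla2 to Suclg2, above them for Aldoc to Aldoa, Eno2 to Eno1 and Ldhb to Ldha, and overlap for Pdk1 to Pdk2.

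Counts of further genes of these pathways stand beside 13.8% of all genes called higher and 13.2% called lower. Of 15 other genes of glycolysis and glucose entry tested, 2 were higher, Hkdc1, a hexokinase-like gene (1.39 on the log2 scale), and the inositol transporter Slc2a13 (0.74), and 2 were lower, the sperm-type enolase Eno4 (-3.11) and Pfkfb4 (-0.80). Of 8 other monocarboxylate and pyruvate transport genes 1 was lower. It was Slc16a6, known from zebrafish liver as an exporter of ketone bodies, which averaged 24.9 CPM in Mfp2-/- and 352 CPM in control retinas (log2 fold change -3.81, adjusted p = 6.40e-07). Emb, for the basigin relative embigin (0.68), and Mpc1, of the mitochondrial pyruvate carrier (0.86), were among the higher genes of this list. Of 8 other genes of the pyruvate dehydrogenase complex and its regulators 0 were higher and 2 were lower, Dld (-0.76), for the E3 subunit, and Pdpr (-0.73), for the regulator of its phosphatase.

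Among 15 further genes at the borders of the citric acid cycle, the malic enzymes Me1 (-0.71) and Me2 (-1.32) were lower, and Pck2 (1.13), for the mitochondrial phosphoenolpyruvate carboxykinase, and the citrate carrier Slc25a1 (0.86) were higher on the log2 scale. The other 11 were not called. Of 20 regulators of hypoxia and glucose sensing 0 were higher and 5 were lower, 25.0% against 13.2% of all genes. The 4 with the smallest adjusted p were Esrrb (-3.89), an oestrogen-related receptor that is also among the rod markers used here, the mitochondrial coactivators Ppargc1b (-2.0) and Ppargc1a (-1.25), and Epas1 (-0.81), for a hypoxia-inducible factor, and the fifth, named after its value was seen, was Hif1an (-0.56), for an inhibitor of these factors. Ppargc1b averaged 44.1 CPM in Mfp2-/- and 178 CPM in control retinas (adjusted p = 4.27e-05).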

How the data were processed

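RNA of both neural retinas of 1 mouse per library was sequenced with a kit that reads the 3′ ends of polyadenylated transcripts, in 4 Mfp2-/- and 4 control mice. The deposited values are raw counts per gene symbol, and the authors applied no normalization to them. The submitters' processing notes name FastQC 0.11.7, HISAT2, SAMtools 1.5, HTSeq 2.7.14 and mm10, while nothing used here states the HISAT2 version, the annotation or whether strand was used. Reads were not collapsed by molecule here.

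Genotypes are those of the labels, and the controls include the Mfp2+/- mouse. The 5 summary lines of each table were left out, of which reads outside genes made up 10.8 to 29.9% and reads aligned more than once 19.9 to 26.2% of a table's total. Counts were fitted across all genes in R 4.3.3 with edgeR 4.0.16 (filterByExpr, TMM factors, quasi-likelihood test, Benjamini-Hochberg adjustment over 12516 genes, called below 0.05). CPM are counts scaled to library size with TMM factors. Ratios used a pseudocount of 0.5. The series-wide table holds the same counts and was not used. Alternatives were other factors (RLE, upper-quartile, none, TMM without photoreceptor genes), no filter, 10 counts in every library, DESeq2 1.42.0, limma-voom (limma 3.58.1), a replicate block, a pseudocount of 2, each library left out, and Mfp2-/- replicates 2 and 3 left out together. The code was tested on simulated data.

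Positions and 3′ ends are from GENCODE M21 (GRCm38). For the last 400 bases of each transcript, the share of 50-base words found in other genes was counted. Besides Gapdh and Eno1, this share exceeded 10% for Gpi1 (32.0%), Ldhb (23.9%), Suclg2 (18.7%) and Pkm (17.4%). It also did so for Ldha (15.7%), Ckb (15.7%), Tpi1 (13.0%) and Aldoa (10.6%). Genes on the other strand that share exon bases and hold over 10% of a member's counts are named. Values of every library are given for called members past 2-fold and for the 7 pairs, and up to 4 called genes of each further list are named, with 1 more where stated. A gene taken by this rule is not reported here. The 45 members, the gene lists and the tests were chosen with earlier results of these data known. Libraries came from separate mice, so p-values measure the spread between mice.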

Additional observations from a re-analysis of the deposited data

Results flagged for a closer look

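Dixon's test was read for 104 groups of 4 libraries, where chance flags about 1 in 20, and 6 of them held a library far from the others of its genotype. In controls, Ckb was at 1229 CPM in replicate 3 and at 989 to 1022 CPM in the others. Control replicate 1 was set apart for Pdk1 (27.3 CPM, others 39.4 to 41.5 CPM), for Idh3g (62.6 CPM, others 45.2 to 47.7 CPM) and for Sucla2 (85.9 CPM, others 67.2 to 69.2 CPM). It also stood apart in the log2 ratio of Aldoc to Aldoa (-1.71, others -1.81 each). Mfp2-/- replicate 2 stood apart in the log2 ratio of Pfkfb2 to Pfkfb3 (-3.27, others -1.65 to -1.50), on 7 counts of Pfkfb2. Of these genes Pfkfb2 and Aldoa were called.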

How the results depend on the processing

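No result changed direction among called genes or pairs. The members called lower numbered 9 to 15 over the alternatives (11 as reported), and the shares of all genes called there are not given here. Those called higher were 3 as reported, 6 with upper-quartile factors, 6 with library totals alone, and 2 to 5 with 1 library left out. Correlations of same-numbered Mfp2-/- and control libraries were 0.080, -0.16, 0.25 and 0.21, and those of unlike numbers ran from -0.44 to 0.48. They gave no sign that the numbers pair the mice, but such correlations cannot exclude a pairing. With the replicate block 3 members were higher and 10 lower, and the pair differences were -0.97 (Hk2 to Hk1), 0.74 (Aldoc to Aldoa), 0.76 (Eno2 to Eno1), 1.34 (Ldhb to Ldha), -2.26 (Pfkfb2 to Pfkfb3) and -2.05 (Sucla2 to Suclg2), all at an exact p of 0.125, the smallest that 4 pairs can give. Without Mfp2-/- replicates 2 and 3 they were -1.04, 0.72, 0.72, 1.39, -1.89 and -1.23 in the same order, where the smallest exact p is 0.0667. With 1 library left out, Eno2 to Eno1 ranged from 0.68 to 0.89, Sucla2 to Suclg2 from -2.34 to -1.58 and Pdk1 to Pdk2 from 0.28 to 0.57. Low counts limit what can be said of Slc16a7, Suclg2 and Gapdh, at 1 to 16 counts a library. For Gapdh, 66.7% of the 3′ words also occur in other genes, so its low count need not reflect depth.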

Other observations

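The following counts stand beside 13.8% of all genes called higher and 13.2% called lower. Of the serine synthesis genes, Psat1 averaged 53.5 CPM in Mfp2-/- and 17.8 CPM in control retinas (log2 fold change 1.58, adjusted p = 1.35e-05), and Psph was higher too (0.79, adjusted p = 0.0209), and these were the 2 genes tested of the 3 listed. In the pentose phosphate pathway 2 of 8 genes were higher and 0 were lower: Tkt, for transketolase, averaged 272 CPM in Mfp2-/- and 146 CPM in control retinas (0.90, adjusted p = 0.0078), and H6pd, of the endoplasmic reticulum, had a log2 fold change of 1.53 (adjusted p = 0.0101). Of 13 glycogen genes Gyg, for glycogenin, was higher (0.68), of 9 genes of the malate-aspartate and glycerophosphate shuttles Gpd1l was higher (0.94), and of 2 further creatine genes the creatine transporter Slc6a8 was higher (0.70, adjusted p = 0.0493). None of these 3 lists had a gene called lower, and the 1 gluconeogenesis gene tested was not called.

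Microglia and macrophage markers summed to between 444 and 581 CPM in Mfp2-/- retinas and between 83.9 and 107 CPM in control retinas, with all 13 higher. Their part in the gains of Slc2a3, Pfkm, Idh2, Tkt and Psat1 was not tested. In the Mfp2+/- control, 20 of the 45 members lay within the range of the 3 Mfp2+/+ libraries. The same share over all genes was not computed, so this count cannot say whether the Mfp2+/- mouse differs from the Mfp2+/+ mice.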
